A study of Homo sapiens with 2 samples.

Results

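The transcripts of 9 amino acid transporters of the plasma membrane were followed in H1944, a cell line established from a human lung adenocarcinoma, with and without depletion of USP12, a deubiquitinase that removes ubiquitin from proteins. The 9 genes, SLC7A5, SLC3A2, SLC38A5, SLC38A1, SLC38A2, SLC1A5, SLC1A4, SLC7A1 and SLC7A6, were taken by symbol from the 59125 rows of the count tables, and each symbol matched 1 row. They were selected on their counts in these same libraries, because SLC38A5 was much lower after USP12 depletion and SLC7A5 was among the most abundant transcripts. Their differences between the libraries are therefore a description of these data.

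Amino acids are charged or polar and cross the cell membrane through carriers of the solute carrier (SLC) families. SLC7A5 (LAT1) carries large neutral amino acids such as leucine, in exchange for other amino acids, and needs the heavy chain SLC3A2 (CD98) to reach the cell surface. SLC38A1 and SLC38A2 (SNAT1 and SNAT2) take up small neutral amino acids together with sodium, and SLC38A5 (SNAT5) carries glutamine, histidine, asparagine, serine and glycine with sodium in exchange for protons. SLC1A5 (ASCT2) and SLC1A4 (ASCT1) exchange alanine, serine, cysteine and, for SLC1A5, glutamine. SLC7A1 (CAT1) takes up arginine, lysine and ornithine, and SLC7A6 (y+LAT2) exchanges arginine for neutral amino acids and, like SLC7A5, pairs with SLC3A2. Several of them are abundant in tumour cells, and leucine and arginine brought in by such carriers are sensed by the kinase complex mTORC1.

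The comparison held 1 library of H1944 cells carrying a control short hairpin RNA (shCON) and 1 library of the same line carrying a short hairpin RNA against USP12 (shUSP12). No library was repeated, so no difference has a replicate check, no p-value was computed and each statement is about these libraries. The count column of shCON was named for an RFP hairpin, whereas the methods of the study describe a GFP hairpin as control, and which USP12 hairpin the library carried was not given in the sources used here. The tables held 18249112 counts for shCON and 17475359 for shUSP12.

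Levels are given as CPM, counts scaled to 1000000 per library after a correction by the trimmed mean of M values (TMM), and differences as the log2 ratio of shUSP12 over shCON after adding 0.1 CPM. Intervals in parentheses are exact 95% Clopper-Pearson intervals. They hold counting error and nothing else. Fragments sequenced with no molecular identifier can be copies of 1 molecule, which would make the intervals too narrow. USP12 itself had 711 counts in shCON and 219 in shUSP12, or 40.8 and 11.97 CPM, a log2 ratio of −1.76 (−1.99 to −1.55).

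The libraries also stood apart in ways that a knockdown label does not describe. A set of 119 rows had 3 counts or fewer in shCON and 50 or more in shUSP12, and 1 row showed the reverse. Rows annotated to chromosome Y with more than 3 counts numbered 2 of 509 in one library and 15 of 509 in the other. All 6 epithelial markers were detected, and their sum was 7144 CPM in shCON and 6076 CPM in shUSP12, of which KRT8 made up 4911 and 3398 CPM. KRT8 and KRT18 were lower in shUSP12, with log2 ratios of −0.53 and −0.49. The others were higher, KRT7 at 0.65 and CDH1 at 1.21. EPCAM, an epithelial adhesion molecule, had 115 counts in shCON and 1566 in shUSP12. KRT19, a keratin of simple epithelia, had 32 and 4452. Of 10 markers of leukocytes, endothelium and fibroblasts, 4 passed the filter on low values, and all 10 summed to 78.9 and 96.6 CPM. Nearly all of this came from the fibroblast matrix genes LUM, with 788 counts in shCON and 1103 in shUSP12, and DCN, with 481 and 597. COL3A1 had 69 and 43 counts and PDGFRB 25 and 11, and CD3E and CD68, markers of T cells and macrophages, were at 0 in both libraries. None of the transporters examined was among the 119 rows. Whether both libraries came from one population of cells, and what part such a difference had in the values below, was not tested, and in bulk RNA fewer cells of a type cannot be told apart from less RNA per cell.

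The 2 transcripts on which the comparison turns, SLC38A5 and SLC7A5, are shown first by the 250 bases before their annotated start sites. The stretches are from RefSeq on GRCh38.p14, each on the minus strand, at chrX:48470261-48470510 and chr16:87869508-87869757, and the capitals mark the E-box CACGTG, the core bound by MYC, MAX and related factors.
SLC38A5: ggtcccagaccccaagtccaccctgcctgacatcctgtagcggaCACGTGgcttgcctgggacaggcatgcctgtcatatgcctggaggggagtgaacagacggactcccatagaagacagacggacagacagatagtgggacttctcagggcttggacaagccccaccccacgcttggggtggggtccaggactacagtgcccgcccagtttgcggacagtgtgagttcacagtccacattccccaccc
SLC7A5: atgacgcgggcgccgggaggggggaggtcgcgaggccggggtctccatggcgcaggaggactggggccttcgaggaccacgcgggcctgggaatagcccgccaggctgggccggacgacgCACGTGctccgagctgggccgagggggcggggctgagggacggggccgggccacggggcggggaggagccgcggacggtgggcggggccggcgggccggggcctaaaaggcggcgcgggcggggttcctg
The E-box began 206 bases before the start site of SLC38A5 and 130 bases before that of SLC7A5. Of all 35116 RefSeq windows of 300 bases, from 250 before to 50 after a start site, 7.26% held this E-box on either strand. The 9 genes had 15 such windows, and 3 of them held it, the last being at a second start site of SLC1A5. This motif is therefore in both of the genes shown and in SLC1A5, whose levels differed very unequally between the libraries, and a match is only a match of letters.

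A different element was found in other members. The C/EBP-ATF response element has the core TGATGNAA and is the sequence through which ATF4, the transcription factor of the amino acid starvation response, acts on many transporter genes. It occurred on either strand in 3.62% of all windows and in 5 of the 15 windows of the members, which belonged to 5 genes. For these, 30 bases around the element are shown, with the element in capitals, at chr11:62881719-62881748 (plus strand), chr12:46266502-46266531 (minus), chr2:64989381-64989410 (plus), chr13:29595663-29595692 (minus) and chr19:46784893-46784922 (minus), in the order of the lines.
SLC3A2: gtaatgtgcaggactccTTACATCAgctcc
SLC38A1: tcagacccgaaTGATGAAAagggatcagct
SLC1A4: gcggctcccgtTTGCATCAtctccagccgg
SLC7A1: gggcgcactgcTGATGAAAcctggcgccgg
SLC1A5: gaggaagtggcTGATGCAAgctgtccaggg
The elements of SLC3A2 and SLC1A4 read on the opposite strand, and for SLC3A2, SLC38A1, SLC1A4 and SLC1A5, which have several annotated start sites, the element was found at 1 of them each. Neither motif was found in the windows of SLC38A2 and SLC7A6, and the rest of these genes was not searched. The genes with the element had log2 ratios from −0.57 to −0.03, and the messenger of ATF4 had 15483 counts in shCON and 13338 in shUSP12, a log2 ratio of −0.29.

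The 9 transporters differed unequally between the libraries. At least 1 CPM as the mean of both libraries was reached by 9 of 9, so no member was left out by the filter. A log2 ratio of −1 or lower, a level at least 2-fold lower in shUSP12, was seen for 1 member, SLC38A5, and a level at least 2-fold higher for 0, while 3.01% of all 14612 rows tested were at least 2-fold lower and 6.48% at least 2-fold higher. The rule for choosing the members used this contrast, so nothing is read from that count. The interval of the ratio lay below 0 for 5 members, above 0 for 1, SLC38A2, and held 0 for 3. The median log2 ratio was −0.15 over the members and −0.01 over all rows tested.

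**Figure D1:**
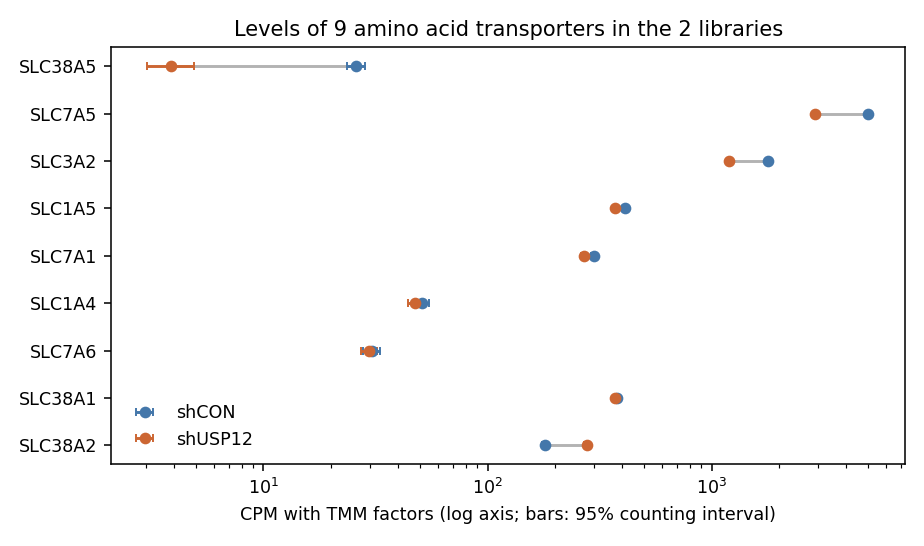
Level of each of the 9 transporters in shCON and shUSP12, in CPM on a log axis, 1 library per group, with 95% counting intervals. The levels run from 3.88 CPM for SLC38A5 in shUSP12 to 5011 CPM for SLC7A5 in shCON, and the widest gap between the libraries is that of SLC38A5.

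The ratio of all rows moved with their level, which bears on the abundant members. Among rows with a mean of 1 to 10 CPM the median log2 ratio was 0.07, and among the 2021 rows with 100 to 1000 CPM it was −0.11. Among the 93 rows with at least 1000 CPM it was −0.33, with quartiles of −0.47 and −0.14. Each member is therefore also placed in a run of 101 rows tested, taken in order of mean level with the member at its middle. SLC7A5 and SLC3A2 were too near the top of that order for this, so both were set against the 101 most abundant rows. These are the rows of like level, a comparison added once the data had been seen.

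**Figure D2:**
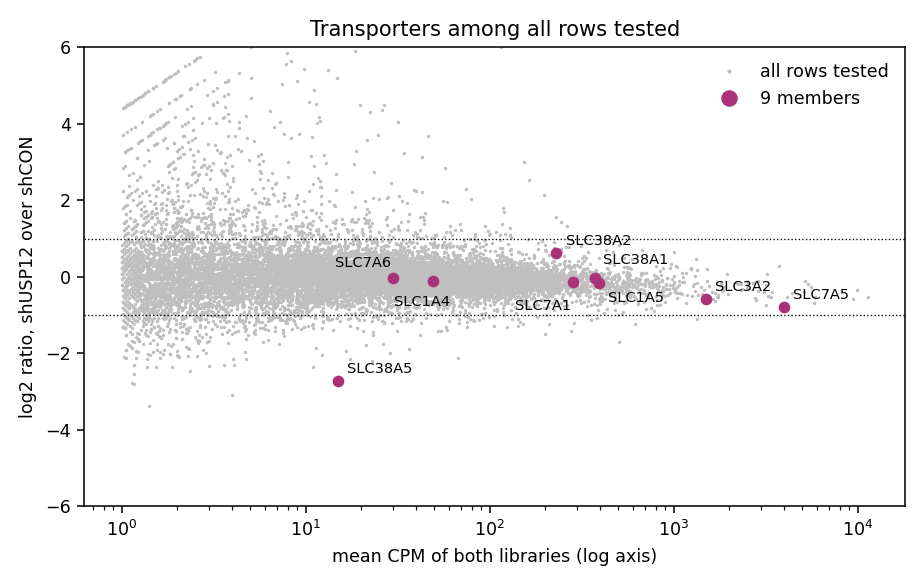
Log2 ratio of shUSP12 over shCON against the mean CPM of both libraries (log axis) for all rows tested (grey) and the 9 transporters (coloured), with dotted lines at a 2-fold difference and 45 rows beyond the vertical range. SLC38A5 lies below the cloud of rows of its level, SLC7A5 and SLC3A2 lie at its lower edge at the abundant end, where the cloud itself is below 0, and SLC38A2 lies near its upper edge.

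SLC38A5 (ENSG00000017483, chrX:48458537-48470260 on GRCh38, minus strand), the sodium-coupled glutamine and serine carrier, had 453 counts in shCON and 71 in shUSP12. This was 25.99 CPM (23.7 to 28.5) against 3.88 CPM (3.03 to 4.89). The shUSP12 level was thus 14.9% of the control, 6.70-fold lower, a log2 ratio of −2.71 (−3.13 to −2.38). The ratio was the 6th lowest of all rows tested and the lowest among the 101 rows of like level, whose median was 0.00 on the log2 scale. By CPM it was the 6494th most abundant row in shCON and the 11696th in shUSP12, and its counting interval stayed beyond a 2-fold difference. The scaling of the libraries changed this little, with −2.58 on total counts alone.

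The neighbours of SLC38A5 on the X chromosome did not share the difference in size. The nearest coding gene on the side of lower coordinates that passed the filter was SSX1, with 76 counts in shCON and 67 in shUSP12, a log2 ratio of −0.25 (−0.75 to 0.24). FTSJ1, a tRNA methyltransferase gene on the other side, had 2646 and 2376 counts, a log2 ratio of −0.23 (−0.31 to −0.14). Among transcripts averaging 5 CPM or more, those whose ratio was nearest to that of SLC38A5 were SPON1, which encodes a secreted matrix protein, at −2.36, the long non-coding RNA LINC00942 at −2.20, and PRUNE2 at −2.15. The likeness was measured over 1 ratio of 2 libraries and carries no more than that.

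SLC7A5 (ENSG00000103257, chr16:87830023-87869507, minus strand), the leucine exchanger, was by far the most abundant member. It had 87349 counts in shCON and 53164 in shUSP12, or 5011 CPM (4978 to 5045) and 2906 CPM (2881 to 2930). By CPM it was the 11th most abundant row in shCON and the 16th in shUSP12, and its share of all counts went from 0.479% to 0.304%. The shUSP12 level was 58.0% of the control, a log2 ratio of −0.79 (−0.80 to −0.77). That ratio was the 2nd lowest among the 93 rows with at least 1000 CPM. Relative to the 101 most abundant rows, whose median was −0.30, the difference was −0.49, and those rows were themselves lower in shUSP12. Most of them were less abundant than SLC7A5, so they are not matched closely to its level.

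SLC3A2 (ENSG00000168003, chr11:62856004-62888880, plus strand), the heavy chain that carries SLC7A5 to the membrane, was lower as well. It had 31036 counts in shCON and 21943 in shUSP12, or 1781 and 1199 CPM. The log2 ratio was −0.57 (−0.60 to −0.55), and 67.4% of the control level remained. It ranked 10th from the lowest ratio among the 93 abundant rows. Relative to the same 101 most abundant rows as for SLC7A5 the difference was −0.27. Both chains of the leucine exchanger were thus lower in shUSP12, the light chain by more than the heavy chain, and their counting intervals did not overlap.

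The sum over the members was set by this pair. All 9 transporters together had 8170 CPM in shCON and 5476 CPM in shUSP12, 67.0% of shCON. SLC7A5 and SLC3A2 alone had 6792 and 4105 CPM, a difference of −2687 CPM. The other 7 members together had 1378 and 1371 CPM, a difference of −7.11 CPM, whose sign turned under total counts (1316 and 1435 CPM). The pair made up 83.1% of the members' CPM in shCON and 74.97% in shUSP12.

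Compared per length of merged exons, the order of the members in shCON was SLC7A5, SLC3A2, SLC1A5, SLC7A1, SLC38A1, SLC38A2, SLC1A4, SLC38A5 and SLC7A6. The per-length levels, scaled to 1000000 over all rows with a length, ran from 3864 for SLC7A5 and 1023 for SLC3A2 to 14.7 for SLC7A6. In shCON the counting intervals overlapped for SLC7A1 and SLC38A1 (139.0 to 146.8 and 135.3 to 142.0) and for SLC1A4 and SLC38A5 (25.4 to 28.95 and 21.6 to 26.1), so those neighbours were not ordered at this depth. In shUSP12 the per-length level of SLC38A2 was 175 against 102 in shCON, which put it 4th, above SLC38A1 at 151 and SLC7A1 at 143. SLC38A5, at 3.94 against 23.8 in shCON, became the lowest member, below SLC7A6 at 15.9. Per-length levels depend on the transcript model, most of all for SLC3A2, whose merged exons span 6392 bases against 1885 for its canonical transcript. With canonical lengths SLC7A5 and SLC3A2 were level in shUSP12, at 1501 and 1497, and in shCON SLC38A1 stood above SLC7A1 and SLC38A5 above SLC1A4.

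SLC3A2 is shared by several light chains, so its level was set against theirs. The light chains that bind it are SLC7A5, SLC7A6, SLC7A7 (y+LAT1, an arginine exchanger), SLC7A8 (LAT2), SLC7A10 and SLC7A11 (xCT, the cystine and glutamate exchanger). The per-length level of SLC3A2 over the sum of the light chains was 0.251 in shCON and 0.288 in shUSP12. With the canonical transcript as length it was 0.791 and 0.913, so the size of the ratio depends on the length used while it was higher in shUSP12 under both. SLC7A5 made up 94.9% of the light chain total in shCON and 93.7% in shUSP12. Its ratio to SLC3A2 went from 3.78 to 3.25 with merged exons, from 1.76 to 1.51 with the longest transcript and from 1.16 to 1.002 with the canonical one.

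**Figure D3:**
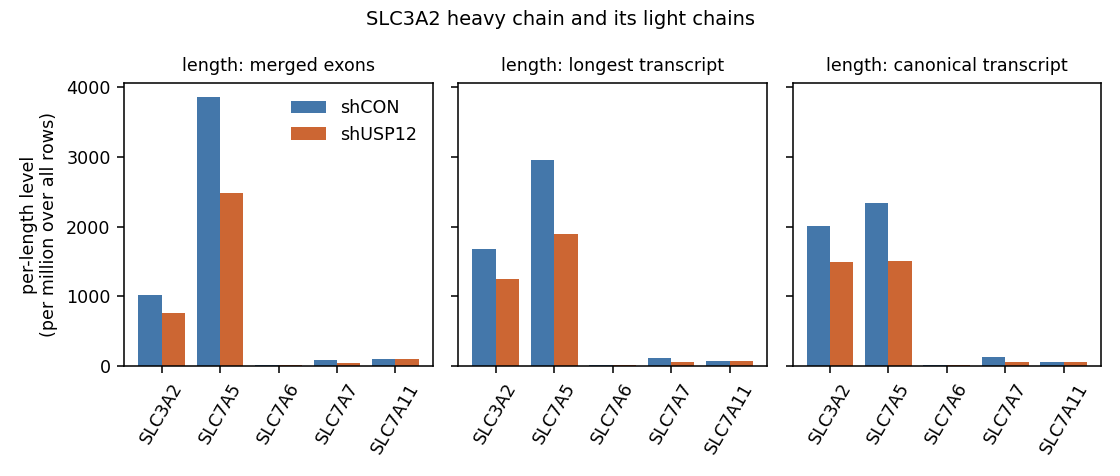
Per-length levels of the heavy chain SLC3A2 and of the light chains SLC7A5, SLC7A6, SLC7A7 and SLC7A11 in shCON and shUSP12, scaled to 1000000. The panels use the length of merged exons, of the longest transcript and of the canonical transcript, on a linear axis. SLC7A5, SLC3A2 and SLC7A7 are lower in shUSP12 in each panel. With merged exons SLC7A11 is at 107.3 in shCON and 106.9 in shUSP12. SLC7A8 and SLC7A10, close to 0, are not drawn.

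The remaining light chains differed among themselves. SLC7A7 had 2164 counts in shCON and 1075 in shUSP12, or 124.2 and 58.75 CPM, a log2 ratio of −1.08 (−1.19 to −0.97), and it fell short of a 2-fold difference when total counts were used for scaling. SLC7A11 had 4910 and 4625 counts, a log2 ratio of −0.16 (−0.21 to −0.10). SLC7A8 had 6 and 10 counts and SLC7A10 had 1 and 1, too few for a ratio. The light chain SLC7A6 (ENSG00000103064, chr16:68264516-68301823, plus strand) had 529 counts in shCON and 541 in shUSP12, or 30.4 and 29.6 CPM, a log2 ratio of −0.04 (−0.21 to 0.14). A difference in SLC7A6 was thus not detectable at this depth, and its sign turned to 0.095 under total counts. SLC7A6 overlaps SLC7A6OS on the opposite strand, which had 118 and 141 counts.

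SLC38A2 was the member that was higher after USP12 depletion. SLC38A2 (ENSG00000134294, chr12:46358188-46372773, minus strand), the alanine, serine and glutamine carrier whose messenger is known to be induced by amino acid starvation, had 3146 counts in shCON and 5094 in shUSP12. This was 180.5 and 278.4 CPM, 1.54-fold higher in shUSP12, a log2 ratio of 0.62 (0.56 to 0.69). It ranked 96th from the lowest among the 101 rows of like level and was below the 2-fold line.

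SLC38A1 (ENSG00000111371, chr12:46183063-46270017, minus strand), which lies next to SLC38A2 in the genome and takes up the same kinds of amino acids, stood apart from it. It had 6587 counts in shCON and 6787 in shUSP12, or 377.9 and 370.9 CPM, a log2 ratio of −0.03 (−0.08 to 0.02). Its sign turned to 0.11 under total counts and to 0.16 relative to rows of like level, so no direction is given. Summed, SLC38A1 and SLC38A2 had 558 CPM in shCON and 649 CPM in shUSP12. The SLC38 members therefore covered the lowest, a near 0 and the highest ratio of the 9.

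SLC1A5 (ENSG00000105281, chr19:46774883-46788594, minus strand), the glutamine exchanger, differed little between the libraries. It had 7194 counts in shCON and 6779 in shUSP12, or 412.7 and 370.5 CPM, a log2 ratio of −0.16 (−0.20 to −0.11). SLC1A4 (ENSG00000115902, chr2:64988477-65023865, plus strand), the alanine, serine and cysteine exchanger, had 893 and 866 counts, or 51.2 and 47.3 CPM, a log2 ratio of −0.11 (−0.25 to 0.02). The arginine carrier SLC7A1 (ENSG00000139514, chr13:29509414-29595688, minus strand) had 5211 and 4939 counts, or 299 and 269.9 CPM, a log2 ratio of −0.15 (−0.20 to −0.09). The sign of SLC1A4 turned under total counts (0.018). SLC1A5 and SLC7A1 stayed below 0 under the 4 scalings tried, at −0.023 and −0.015 under total counts, but were level with rows of like level, at 0.011 and 0.0025 relative to their medians.

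Copies of the members added little to the counts. SLC7A5P1, a pseudogene of SLC7A5, had 35 counts in shCON and 38 in shUSP12, and SLC7A5P2 was at 0 in both. Counts of SLC7A5 and its pseudogenes may be split by the counting of the authors, but the pseudogene counts were far below those of SLC7A5.

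The other amino acid transporters were read from a list of 43 further genes of the cell surface and lysosome, of which 20 passed the filter and 12 were at 0 in both libraries. Of the 20, 2 were at least 2-fold lower and 1 at least 2-fold higher, beside 3.01% and 6.48% of all rows, and the median log2 ratio was −0.20. SLC7A2, a second arginine carrier, had 1334 counts in shCON and 525 in shUSP12, a log2 ratio of −1.41 (−1.56 to −1.27). Together with SLC7A7 it made up the lower genes. Both carry cationic amino acids, as does SLC7A1, which was at −0.15. SLC6A17, a vesicular carrier of neutral amino acids, was just short of 2-fold at −0.96. With upper quartile factors 3 of the other transporters were at least 2-fold lower, beside 3.45% of all rows. The taurine transporter SLC6A6, with 6283 and 4240 counts, was at −0.64. The higher gene was SLC38A4, of the same family as SLC38A2, with 6 counts in shCON and 37 in shUSP12, a log2 ratio of 2.26 (1.297 to 4.09). It reached the filter only through shUSP12, with 0.344 CPM in shCON and 2.02 CPM in shUSP12. With a mean of at least 5 CPM required, 0 other transporters were higher, beside 3.24% of all rows. Of the others, the glutamate carrier SLC1A1 was at 0.50 (0.02 to 1.02) and the lysosomal arginine sensor SLC38A9 at 0.39, with 240 and 330 counts. SLC66A1, the lysosomal exporter of cationic amino acids, was at 0.13 (−0.12 to 0.38).

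Of 12 mitochondrial amino acid carriers listed, 11 passed the filter and 0 were at least 2-fold lower or higher, too few genes to set apart from the 3.01% and 6.48% of all rows. Their median log2 ratio was −0.05. The serine carrier SFXN2 was at −0.54, with 301 counts in shCON and 216 in shUSP12, and SLC25A44, which carries branched-chain amino acids, was at 0.32, with 1157 and 1513 counts. Over all 64 transporters, the members included, 40 passed the filter, 3 were at least 2-fold lower and 1 higher, beside 3.01% and 6.48% of all rows, and the median was −0.16. The 3 include SLC38A5, which was selected for its low ratio.

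**Figure D4:**
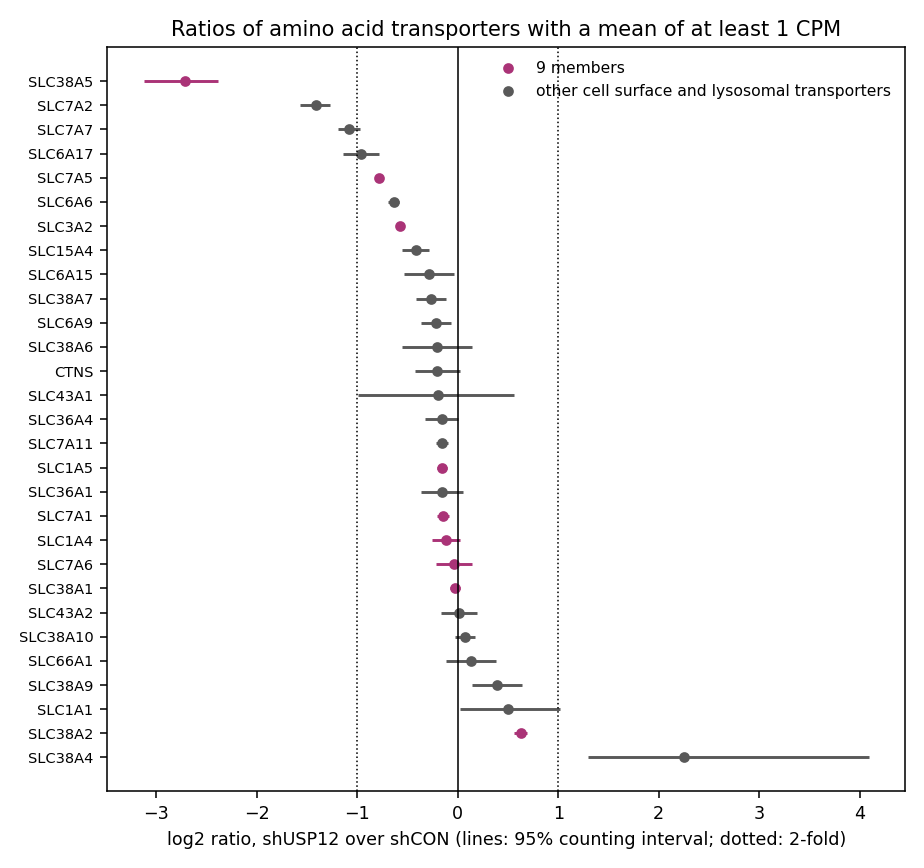
Log2 ratio of shUSP12 over shCON, with 95% counting intervals, for the 9 transporters (coloured) and the 20 other transporters of the cell surface and lysosome that passed the filter (grey). SLC38A5, SLC7A2 and SLC7A7 lie beyond the 2-fold line on the lower side and SLC38A4 on the higher side, where its interval of 1.297 to 4.09 is among the widest.

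The enzymes that make or use the transported amino acids were next set beside the carriers. Of 29 genes of amino acid synthesis and glutamine use, 28 passed the filter and 0 were at least 2-fold lower or higher. Over all rows, 3.01% were lower and 6.48% higher. At 10 to 100 CPM only 1.16% of rows were at least 2-fold lower, and at 100 to 1000 CPM 0.99%. Nothing is therefore read from a count of 0 in this list or in the lists below. The median log2 ratio of the synthesis genes was −0.04. ASS1, which makes the arginine precursor argininosuccinate from citrulline, had 17069 counts in shCON and 11788 in shUSP12, a log2 ratio of −0.60 (−0.64 to −0.57). BCAT1 and BCAT2, the cytosolic and mitochondrial transaminases of leucine, isoleucine and valine, lay on opposite sides of 0. BCAT1 had 858 and 1748 counts, a log2 ratio of 0.96 (0.84 to 1.08), and BCAT2 had 1050 and 756, a log2 ratio of −0.54 (−0.68 to −0.41). BCAT1 was just inside the 2-fold line and passed it under total counts. CTH, which makes cysteine, was at 0.60, and the hexosamine enzyme GFPT1 at 0.37 and glutamate dehydrogenase GLUD1 at 0.36.

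Of the 20 cytosolic aminoacyl-tRNA synthetases, which load the amino acids onto tRNA, 20 passed and 0 were at least 2-fold lower or higher. Over all rows these shares were 3.01% and 6.48%, and the median of the synthetases was 0.06. The tryptophanyl enzyme WARS1 had 2943 counts in shCON and 4571 in shUSP12, a log2 ratio of 0.56 (0.50 to 0.63), and the glycyl enzyme GARS1 was at 0.40. The lowest were the tyrosyl enzyme YARS1 at −0.27 and the valyl enzyme VARS1 at −0.24. The leucyl enzyme LARS1 was at 0.30.

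Of 35 genes of mTORC1 itself and of amino acid sensing upstream of it, 34 passed and 0 were at least 2-fold lower or higher. SLC38A9 was counted both here and among the other transporters. Over all rows these shares were 3.01% and 6.48%, and the median of the sensing genes was −0.03. Members of the sestrin family, whose protein SESN2 binds leucine, were unequal. SESN2 had 837 counts in shCON and 1539 in shUSP12, a log2 ratio of 0.81 (0.69 to 0.93), and SESN3 had 294 and 520, at 0.75, whereas SESN1 had 346 and 271, at −0.42. RRAGD, a Rag GTPase that recruits mTORC1 to the lysosome, had 138 and 74 counts, a log2 ratio of −0.95 (−1.40 to −0.55). The mTOR subunit MLST8 was at −0.49, and LAMTOR3 and LAMTOR1, of the lysosomal Ragulator scaffold, were at 0.66 and 0.45.

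Of 13 factors and ubiquitin ligases known to act on the members, 13 passed and 0 were at least 2-fold lower or higher. Over all rows these shares were 3.01% and 6.48%, and the median of these 13 genes was −0.01. MYC, known to act on SLC7A5 and SLC1A5, had 4351 counts in shCON and 3804 in shUSP12, a log2 ratio of −0.26 (−0.33 to −0.20). CEBPB was at −0.44, and DDIT3, a target of ATF4, had 133 and 218 counts, at 0.64. EPAS1 (HIF-2α), also known to act on SLC7A5, was at 0.37 and HIF1A at 0.42. NEDD4, a ligase of the family that ubiquitinates SLC38 carriers, was at 0.26, with 580 and 731 counts. The other ligases listed differed little, NEDD4L at −0.01 (−0.11 to 0.09) and RNF5 at −0.02 (−0.18 to 0.14). These are transcript levels, and neither the proteins nor their activity was measured.

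**Figure D5:**
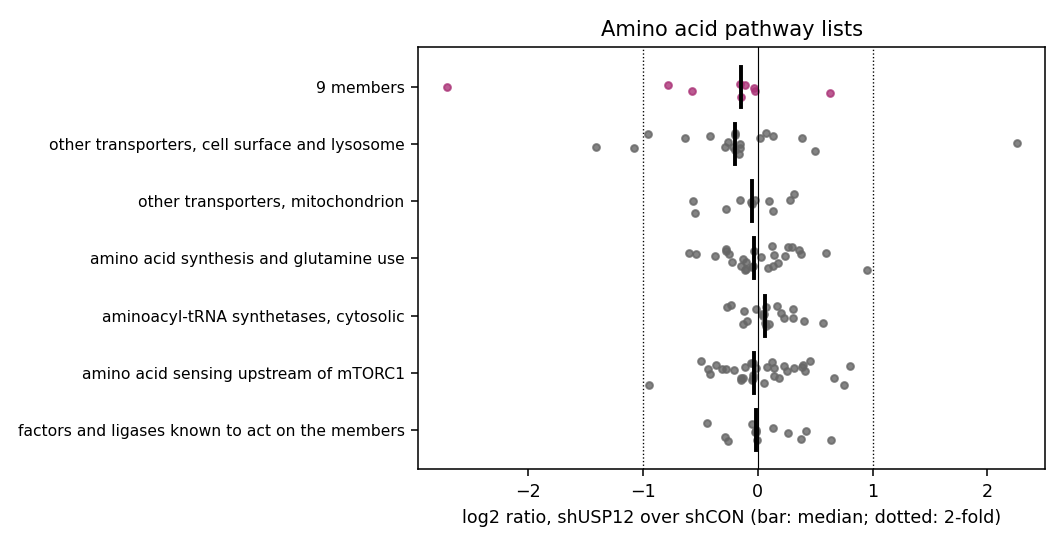
Log2 ratio of shUSP12 over shCON for each gene that passed the filter in the lists of transporters, amino acid synthesis, aminoacyl-tRNA synthetases, amino acid sensing and factors acting on the members, with a bar at each median. The list medians run from −0.20 to 0.06, and beyond the 2-fold lines lie transporters only. Over all rows tested, 3.01% lie beyond the lower line and 6.48% beyond the higher line.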

How the data were processed

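RNA sequencing compared H1944 cells carrying shCON with H1944 cells carrying shUSP12, 1 library each, grouped by the treatment label. The deposited values were whole-number counts per gene that the authors left without normalisation. The methods of the study name Seqtk, Hisat2 and StringTie, whereas the submitters' processing notes name Trimmomatic, HISAT2 2.0.4 and HTSeq 0.6.0 with GRCh38, so the counting tool is uncertain. The annotation release and the strand setting of the counting were not given in the sources used here, so reads of overlapping antisense genes may be mixed. Lines of spilled annotation text without a count were left out of both tables, 91 of them in that of shCON.

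CPM values were computed with TMM factors (0.955 for shCON, 1.05 for shUSP12) from edgeR 4.0.16 in R 4.3.3, and the log2 ratio after adding 0.1 CPM, which makes ratios of rare transcripts too small. Intervals of a ratio carry no pseudocount. Rows averaging 1 CPM or more were counted as tested, and 2-fold as lower or higher. Totals of 18249112 and 17475359 counts put the floor of 3 counts at 0.172 and 0.164 CPM. With 1 library a group no test was possible. Lengths came from GENCODE 44 on GRCh38, which held 58207 of 58735 Ensembl identifiers, and promoter windows from RefSeq (GRCh38.p14), with all 9 members matched. Motifs were searched on both strands.

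The members and gene lists were chosen with earlier results of these data known. Genes were named by a rule: USP12, the members, the light chains of SLC3A2, copies of members, neighbours and nearest ratios of SLC38A5, and up to 4 genes with the highest and 4 with the lowest ratio of each list. NEDD4L and RNF5 were named outside this rule, to set NEDD4 beside the other ligases listed. Other scalings (total counts, upper quartile, DESeq2 1.42.0), filters, pseudocounts, fold thresholds and transcript lengths were alternatives, and rows of like level were added after seeing the data. The log2 ratio, its interval and the 2-fold call were tested on simulated counts that held Poisson counting error alone. The TMM scaling, per-length levels, rows of like level and motif search were not part of that test. Python 3.11.15 with NumPy 2.4.6, pandas 2.3.3, SciPy 1.17.1 and Matplotlib 3.10.9 was used.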

Additional observations from a re-analysis of the deposited data

How the results depend on the processing

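No paired analysis was possible because shCON and shUSP12 were sequenced as 1 library each. For the same reason no library could be left out. SLC38A5 kept its direction and its side of the 2-fold line under every scaling and pseudocount tried. Scaling to total counts alone moved the median of all rows by 0.13 and made 79.6% of the changed rows higher, against 68.3% with TMM. Under it the log2 ratios were −0.65 for SLC7A5, −0.44 for SLC3A2, 0.76 for SLC38A2, −0.023 for SLC1A5, −0.015 for SLC7A1 and for the median of the members, and the sign turned for SLC38A1 (0.11), SLC1A4 (0.018) and SLC7A6 (0.095). The same scaling left 1 of 31 other transporters lower (against 3 with upper quartile factors) and put 1 of 28 synthesis genes higher. Of all rows it left 291 (1.99%) lower and put 7.77% higher, while upper quartile factors put 3.45% lower. SLC7A5 was at −0.76 with DESeq2 size factors and at −0.83 with upper quartile factors, which put SLC3A2 at −0.62.

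Relative to rows of like level, chosen after seeing the data, SLC38A2 was at 0.71, SLC7A5 at −0.49 and SLC3A2 at −0.27, and the sign turned for SLC38A1 (0.16), SLC1A5 (0.011) and SLC7A1 (0.0025). At a 1.5-fold threshold all rows gave 1331 lower (9.11%) and 1744 higher (11.9%). Lower were 2 members, 4 of 31 other transporters, 1 of 28 synthesis genes and 1 of 34 sensing genes. Higher were 1 member (SLC38A2), 1 other transporter, 2 synthesis genes, 3 sensing genes and 1 of 13 factors. Nothing is read from these small counts. At 4-fold, 0 other transporters were lower, and all rows gave 38 (0.26%) and 416 (2.85%). Without a filter, 5 of 42 other transporters were lower and 2 higher, and all rows gave 2447 (8.72%) and 3993 (14.2%). With at least 5 CPM, 0 of 27 other transporters were higher, and all rows gave 168 (1.51%) and 361 (3.24%). A pseudocount of 1 CPM gave 214 lower rows (1.46%). The ratio of SLC3A2 to its light chains was 0.533 and 0.613 with the longest transcript and 0.791 and 0.913 with the canonical one. Whether any difference would recur in a repeated culture was not tested.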
